A study of Mus musculus with 6 samples.

Results

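The IL-6 family genes examined here were 10 genes of the gp130 cytokine system, picked by gene symbol: the cytokines Il6, Il11, Lif and Osm, the receptor genes Il6ra, Il6st, Lifr and Osmr, and the signaling genes Stat3 and Socs3. All 10 were found among the 35976 genes listed in the count table, and 9 of them were among the 14542 genes with enough counts to be tested. Their mRNA was measured by RNA-seq in brown adipose tissue (BAT) from 3 WT littermates and 3 sST2-KO mice, whose libraries are labelled ST2-KO. The mice were 10-week-old males of the C57BL/6J background, and sST2-KO mice and their WT littermates came from crosses of heterozygotes. sST2-KO mice carry a CRISPR/Cas9 deletion of the intron of Il1rl1 that holds the stop codon of soluble ST2 (sST2), a secreted form of the IL-33 receptor, and the deletion is not limited to BAT. All 6 mice, WT included, had their BAT sympathetic nerves cut, were kept at 30 °C for 7 days and were then exposed to 10 °C for 8 h, so no library shows BAT with intact nerves or without cold.

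The cytokines of this family share gp130, the signal-transducing receptor chain encoded by Il6st. IL-6 and IL-11 first bind their own receptor chains, such as the one encoded by Il6ra, and then recruit gp130, whereas LIF uses the LIF receptor (Lifr) with gp130 and mouse oncostatin M (Osm) mainly uses the oncostatin M receptor (Osmr) with gp130. The assembled receptors activate JAK kinases, which phosphorylate STAT3. STAT3 then induces Socs3, whose protein binds gp130 and dampens the signal. In adipose tissue these cytokines are made mostly by immune and stromal cells, and adipocytes are among the cells that respond to them.

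The clearest differences lay in the genes Il6, Osm and Socs3, whose start regions are shown because such stretches can hold part of the sequence that controls a gene. Each runs from 250 bases before to 50 bases from the start of the gene's canonical transcript in the GENCODE annotation, was read from the GRCm39 genome, and is written 5′ to 3′ on the gene's own strand. Capitals mark matches to the letters TTCNNNGAA (STAT factors), TGANTCA (AP-1), TGACGTCA (CREB) or GGGA, 1 base of any kind and TTTCC (NF-kB), each searched on both strands. The Il6 window lies at chr5:30217862-30218161 on the plus strand, the Osm window at chr11:4186170-4186469 on the plus strand and the Socs3 window at chr11:117860074-117860373 on the minus strand. The Socs3 window lies inside the annotated gene, which begins further upstream, at 117860898. Sequence outside the windows was not searched.
Il6: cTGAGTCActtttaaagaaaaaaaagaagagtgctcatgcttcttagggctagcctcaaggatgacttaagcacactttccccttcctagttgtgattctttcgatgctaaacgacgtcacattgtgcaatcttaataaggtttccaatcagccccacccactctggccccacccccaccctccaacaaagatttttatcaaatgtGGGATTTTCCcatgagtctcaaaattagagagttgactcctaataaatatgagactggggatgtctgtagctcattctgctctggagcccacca
Osm: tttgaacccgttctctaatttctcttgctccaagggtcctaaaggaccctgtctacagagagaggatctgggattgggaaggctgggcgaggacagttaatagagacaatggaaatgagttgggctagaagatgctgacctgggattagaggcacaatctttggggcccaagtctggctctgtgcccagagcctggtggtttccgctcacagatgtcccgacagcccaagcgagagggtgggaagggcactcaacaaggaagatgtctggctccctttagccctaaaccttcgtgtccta
Socs3: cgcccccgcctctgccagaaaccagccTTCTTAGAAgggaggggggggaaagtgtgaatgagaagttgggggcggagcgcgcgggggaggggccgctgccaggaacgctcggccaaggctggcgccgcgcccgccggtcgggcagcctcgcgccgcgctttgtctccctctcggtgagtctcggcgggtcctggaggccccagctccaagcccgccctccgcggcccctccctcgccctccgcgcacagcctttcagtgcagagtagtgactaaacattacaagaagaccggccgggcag
The Socs3 window held 1 STAT match, TTCTTAGAA, which begins 223 bases before the start, and it was the only member with one. Of 21757 start regions of protein-coding genes, 8.82% held such a match. The Il6 window held 1 AP-1 match, TGAGTCA, and 1 NF-kB match, GGGATTTTCC, 44 bases before the start. AP-1 matches were found in 7.15% and NF-kB matches in 0.478% of all start regions. Among the other members, Lif and Il11 each held 1 AP-1 match and Stat3 held 1 CREB match, a motif present in 2.45% of all start regions. The Osm window held none of these letters. The motifs were chosen after the values were seen, the matches are descriptions of sequence, and no binding was measured.

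The libraries held 8159442 to 12874809 counts. Levels are given as normalized CPM, a gene's counts relative to its library size after scaling by edgeR's TMM method. A gene was called when its adjusted p, taken from the quasi-likelihood test of edgeR over all genes tested, was under 0.05 and the fold change exceeded 2. By this rule 16.1% of the genes tested were called, with 9.04% of all genes tested higher and 7.1% lower in sST2-KO mice, so calls were common. The median log2 fold change of all genes was 0.034 with TMM factors and 0.29 when libraries were scaled by their total counts, and 56.0% and 72.7% of the calls were higher in these settings. The targeted gene Il1rl1 had 6 to 19 counts in WT libraries and 55 to 142 in sST2-KO libraries, but counts per gene add both forms of its mRNA and do not check the genotype. Brown adipocyte markers were detected in every library, with a summed level of 8003 to 15240 CPM in WT mice and 351 to 1899 CPM in sST2-KO mice. In bulk tissue, fewer cells of a type and less RNA per cell cannot be told apart.

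Of the 4 cytokine genes, Il6 and Osm rose in sST2-KO mice, Lif did not pass the test and Il11 had too few counts to be tested. Il6, the founding member of the family, spans bases 30218112 to 30224979 of chromosome 5 (GRCm39, plus strand) in 5 exons. In the order of their replicate numbers, which holds for all values below, the WT libraries had 0.466, 1.32 and 0.123 CPM of Il6 (5, 14 and 1 counts) and the sST2-KO libraries 5.44, 19.3 and 26.3 CPM (78, 163 and 266 counts). The lowest sST2-KO value was thus above the highest WT value, and sST2-KO replicate 1 stood below the other sST2-KO replicates. WT mice averaged 0.636 ± 0.616 CPM and sST2-KO mice 17.0 ± 10.6 CPM (SD, n = 3 each). The fitted change was 25.2-fold, or 4.66 on the log2 scale with a standard error of 0.82, and its adjusted p by edgeR's quasi-likelihood test was 0.0154. Because the WT libraries held few counts, the size of this fold change rests on few reads. Without WT replicate 3 the log2 fold change was 4.23 and the adjusted p 0.0650, and without any other library the call was kept (adjusted p = 0.0180 to 0.0410). The estimate was largest, 5.71, without WT replicate 2, which held most of the WT counts.

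Osm, which encodes oncostatin M, a cytokine made mainly by myeloid cells and T cells, lies on chromosome 11 from 4186420 to 4191026 on the plus strand. Its levels were 2.43, 1.70 and 0.370 CPM in the WT libraries, and 5.65, 13.2 and 28.1 CPM in the sST2-KO libraries. The groups did not overlap, and the spread within sST2-KO mice was wide. Osm rose 10.1-fold on the fitted scale, a log2 fold change of 3.34 with a standard error of 0.75 and an adjusted p of 0.0250 in the same test. The call was lost without WT replicate 2 (adjusted p = 0.0757), without WT replicate 3 (0.0829) and without sST2-KO replicate 3 (0.0538), where the log2 fold changes were 3.41, 2.91 and 2.60.

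Lif, the leukemia inhibitory factor gene, lies 16530 bp downstream of Osm on the same strand, from 4207557 to 4222514. The WT libraries had 1.31, 0.942 and 1.36 CPM, the sST2-KO libraries 1.53, 5.10 and 8.10 CPM. The groups did not overlap, but sST2-KO replicate 1 lay just above the WT libraries. The log2 fold change was 2.01 with a standard error of 0.61, and the adjusted p of 0.0557 was just short of a call. DESeq2 called Lif (adjusted p = 0.0125), and so did edgeR with total counts (0.0383), with no filter on low counts (0.0481), with at least 10 counts in every sample (0.0474) and without sST2-KO replicate 1 (0.0236), whereas the adjusted p reached 0.159 with another library left out. Il11, on chromosome 7 from 4775372 to 4785858 on the minus strand, had 5 to 8 counts in every library of either group. The groups overlapped, at 0.662 ± 0.196 CPM in WT and 0.600 ± 0.186 CPM in sST2-KO mice (SD, n = 3 each). With no filter on low counts its log2 fold change was -0.14 with a standard error of 0.61 (adjusted p = 0.909), which at this depth leaves room for changes in either direction.

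**Figure D1:**
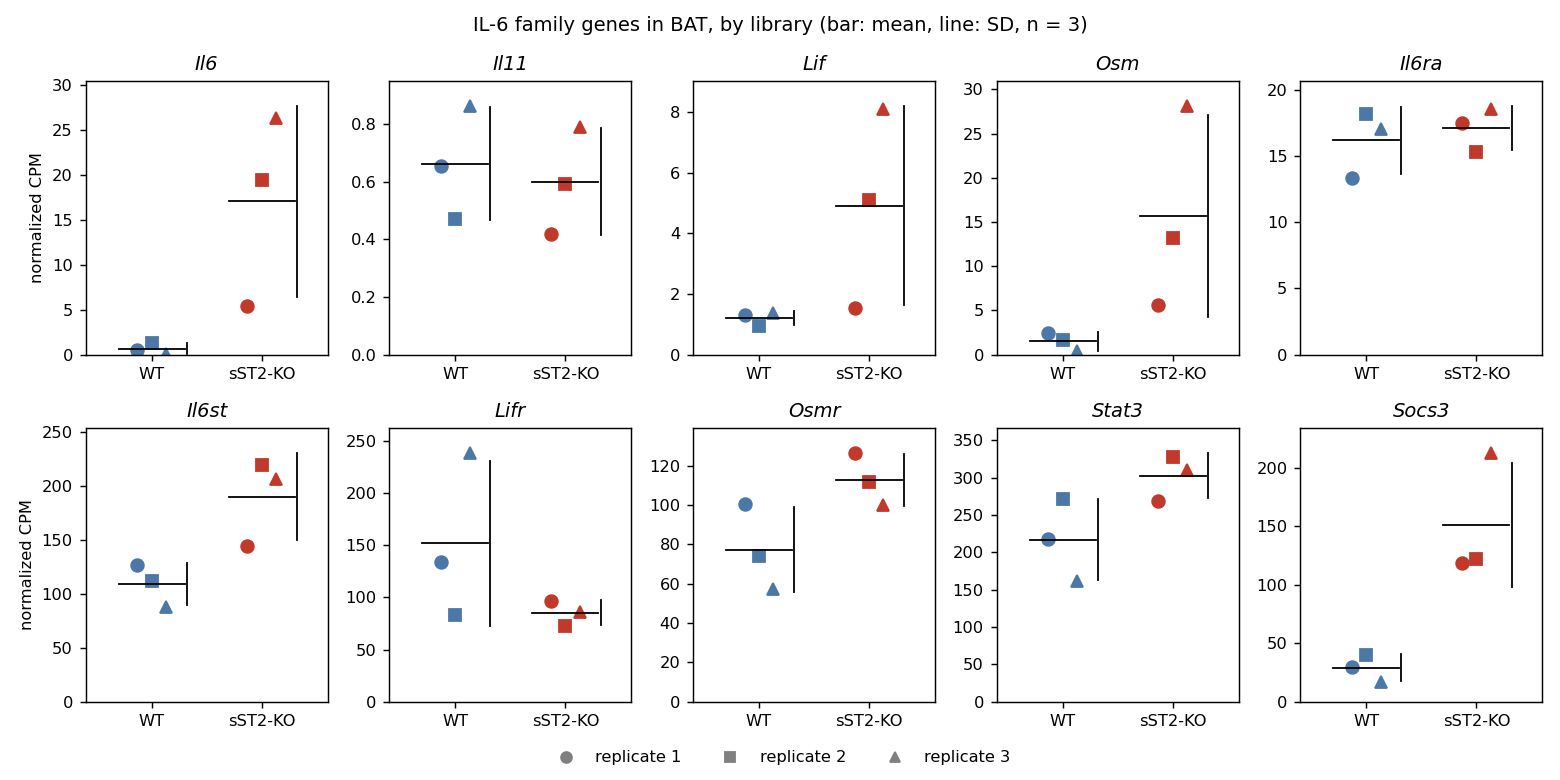
Normalized CPM (y axis, from 0, a scale of its own in each panel) of the 10 IL-6 family genes in WT and sST2-KO libraries (x axis). Each symbol is 1 library, horizontal bars are means and vertical lines are SD, n = 3. Il6, Osm, Lif, Il6st and Socs3 have every sST2-KO library above every WT library, while Il11, Il6ra, Lifr, Osmr and Stat3 overlap.

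None of the 4 receptor genes was called by DESeq2 or by the main edgeR fit, which used all libraries, TMM scaling and edgeR's own filter on low counts. In DESeq2 the adjusted p of Il6st was 0.0180 at less than 2-fold. In the main edgeR fit Il6st alone of the 4 had an unadjusted p under 0.05. Other settings gave such values for Lifr (0.029 in DESeq2, 0.035 in edgeR with no filter) and, in edgeR, for Osmr (0.026 with total counts, 0.049 with no filter, 0.046 with at least 10 counts in every sample). The changes of the receptor genes were small beside those of Il6 and Osm. Il6st, which encodes gp130, lies on chromosome 13 from 112600604 to 112646620 on the plus strand. It had 127, 112 and 88.0 CPM in the WT libraries, all lower than the 144, 219 and 206 CPM of the sST2-KO libraries. The log2 fold change was 0.80, or 1.74-fold, with a standard error of 0.24 and an adjusted p of 0.0540. With total counts as the scale it was 1.04 with an adjusted p of 0.0322, which met both thresholds, and with a library left out the adjusted p ranged from 0.0388 to 0.192. Il6ra, which encodes the receptor chain that binds IL-6, lies on chromosome 3 from 89771366 to 89820719 on the minus strand. It had 13.3, 18.2 and 17.0 CPM in WT mice and 17.5, 15.3 and 18.6 CPM in sST2-KO mice, so the groups lay on top of each other. The log2 fold change of 0.083 was smaller than its standard error of 0.21 (adjusted p = 0.809), and without WT replicate 1 it was -0.045.

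Osmr and Lifr are neighbors on chromosome 15, 215644 bp apart, and encode the chains that pair with gp130 for oncostatin M and LIF. Osmr, from 6843053 to 6904450 on the minus strand, had 100.4, 74.4 and 57.2 CPM in the WT libraries, against 126, 112 and 100.03 CPM in the sST2-KO libraries. Only the highest WT value exceeded the lowest sST2-KO value, and by less than 1 CPM. The estimate was 0.54 on the log2 scale with a standard error of 0.24 (adjusted p = 0.148). Lifr, from 7120095 to 7226970 on the plus strand, was the single tested member with a negative estimate, with 134, 83.0 and 238 CPM in the WT libraries, against 96.7, 73.0 and 85.7 CPM in the sST2-KO libraries. The WT values were spread widely and the lowest of them lay inside the sST2-KO range. The estimate was -0.83 on the log2 scale with a standard error of 0.37 (adjusted p = 0.148), and without WT replicate 3, the highest library, it was -0.35. The ratio of Lifr to Osmr, per exon length, was 1.20, 1.00 and 3.74 in WT mice, and 0.687, 0.587 and 0.770 in sST2-KO mice. It was lower in each sST2-KO mouse, with a two-sided exact permutation p = 0.1, the smallest that 3 mice against 3 can give. This ratio was chosen after the values were seen.

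Of the signaling genes, Socs3 rose and Stat3 did not pass the test. Stat3, the transcription factor that carries the signal to the nucleus, lies on chromosome 11 from 100775924 to 100830450 on the minus strand and had 217, 272 and 162 CPM in the WT libraries, against 269, 328 and 310.5 CPM in the sST2-KO libraries. The lowest sST2-KO library fell just below the highest WT library. The estimate was 0.48 on the log2 scale with a standard error of 0.24 (adjusted p = 0.201). These are mRNA levels, and the phosphorylation through which STAT3 is activated was not measured. Socs3, the feedback inhibitor of gp130 signaling, lies on the same chromosome from 117856905 to 117860898 on the minus strand. The WT libraries had 29.8, 40.1 and 16.9 CPM, the sST2-KO libraries 118, 122 and 213 CPM. Every sST2-KO value was well above every WT value. WT mice averaged 28.9 ± 11.6 CPM and sST2-KO mice 151 ± 53.3 CPM (SD, n = 3 each). Socs3 thus rose 5.22-fold, or 2.38 on the log2 scale with a standard error of 0.38, and its adjusted p by edgeR's quasi-likelihood test was 0.0142. With 137 to 2153 counts per library, Socs3 was measured on many more reads than Il6 or Osm. Its call was lost without WT replicate 3 (log2 fold change 2.11, adjusted p = 0.0610) and kept without each of the others.

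In all, 3 of the 9 members tested were called higher and 0 lower, where 9.04% of all genes tested were called higher and 7.1% lower. At an unadjusted p under 0.05, edgeR gave 5 members higher and 0 lower, against 19.6% and 16.7% of all genes tested, and DESeq2 gave 5 higher and 1, Lifr, lower, against 19.2% and 17.7%. By adjusted p and fold, DESeq2 called 4 members higher and 0 lower, against 11% and 8.8% of all genes. Values of 5 of the 9 lay entirely above the WT values, where this held for 21.8% of all genes tested, and 0 lay entirely below, against 19.7%. Il6, Osm and Lif would not have passed the filter on low counts by their WT libraries alone, so that being higher in sST2-KO mice helped them to be tested, and these counts describe the list only. The median log2 fold change of the 9 was 0.80 against 0.034 for all genes tested. Without WT replicate 3 the count of called members was 0, with 5 at an unadjusted p under 0.05, and in that setting 58 genes were called in the whole table. The count was 2 without WT replicate 2, where 2.63% of all genes tested were called higher, and 2 without sST2-KO replicate 3, where 4.59% were. With total counts it was 5, against 12.7% of all genes.

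**Figure D2:**
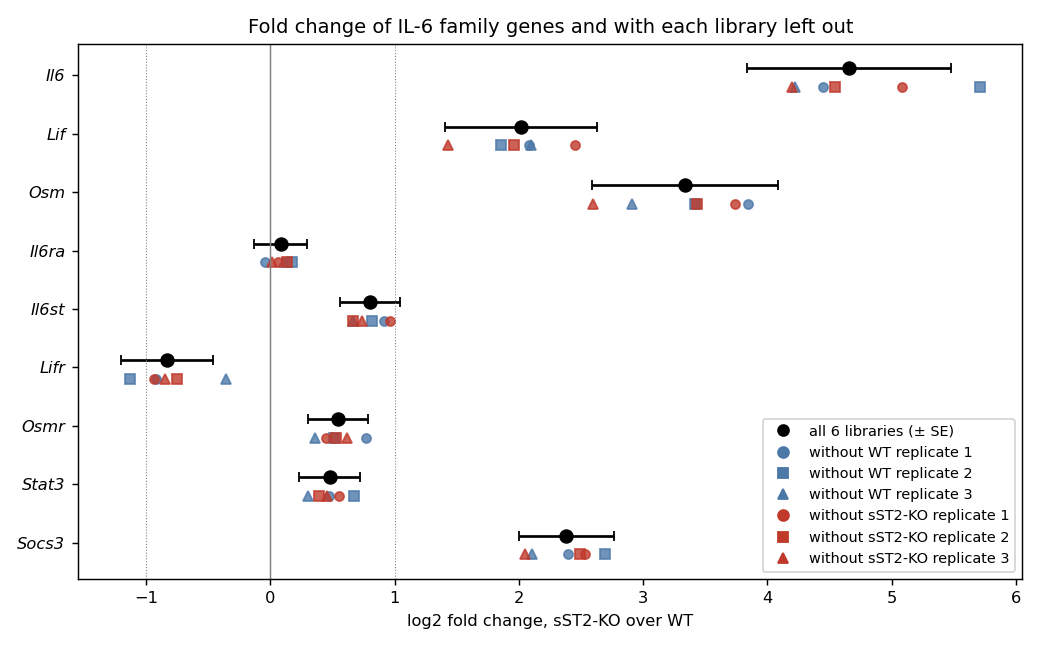
Log2 fold change of sST2-KO over WT (x axis) for the 9 members tested (y axis). Black points with bars are the estimate from all 6 libraries and its standard error, colored symbols are the estimates with 1 library left out, and dotted lines mark a 2-fold change. Il6, Osm, Lif and Socs3 lie right of the 2-fold line whichever library is left out, and the direction changes for Il6ra alone.

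The order of the genes by level differed between the groups, when CPM was divided by the exon length of each gene. This length counts the exon bases of every annotated transcript, 10096 for Stat3 and 3560 for Socs3. It can exceed the length of a single mRNA, so the order between genes depends on this choice. Without the division, Stat3 was above Socs3 in every sST2-KO library, at 269 to 328 CPM against 118 to 213 CPM. In WT mice Stat3 had the highest level, 21.5 ± 5.43 CPM per kb (SD, n = 3), followed by Lifr, Socs3, Il6st and Osmr at 10.99, 8.12, 7.01 and 6.24 CPM per kb. Each of these 5 overlapped the next in that order, although every Stat3 value was above every value of Socs3, Il6st and Osmr. Il6ra followed at 1.83 ± 0.286 CPM per kb and was separate from its neighbors on both sides. The cytokine genes came last, Osm at 0.659, Il11 at 0.318, Il6 at 0.262 and Lif at 0.261 CPM per kb, again with overlapping values. In sST2-KO mice Socs3 came first at 42.4 ± 15.0 CPM per kb (SD, n = 3), and each of its values was above the values of Stat3, at 29.96 ± 3.01. Il6st and Osmr followed at 12.2 and 9.10 CPM per kb. Il6 at 7.01 ± 4.37 and Osm at 6.89 ± 5.04 CPM per kb now overlapped Osmr and Lifr, the latter at 6.17 ± 0.859, although their lowest values, 2.24 and 2.48, lay below both. Il6ra, at 1.93 CPM per kb, lay below the lowest Lifr value, and Lif and Il11 came last at 1.07 and 0.289 CPM per kb. The ratio of Socs3 to Stat3, per length and chosen after the values were seen, was 0.388, 0.418 and 0.295 in WT mice and 1.25, 1.06 and 1.94 in sST2-KO mice (two-sided exact permutation p = 0.1, the smallest possible).

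**Figure D3:**
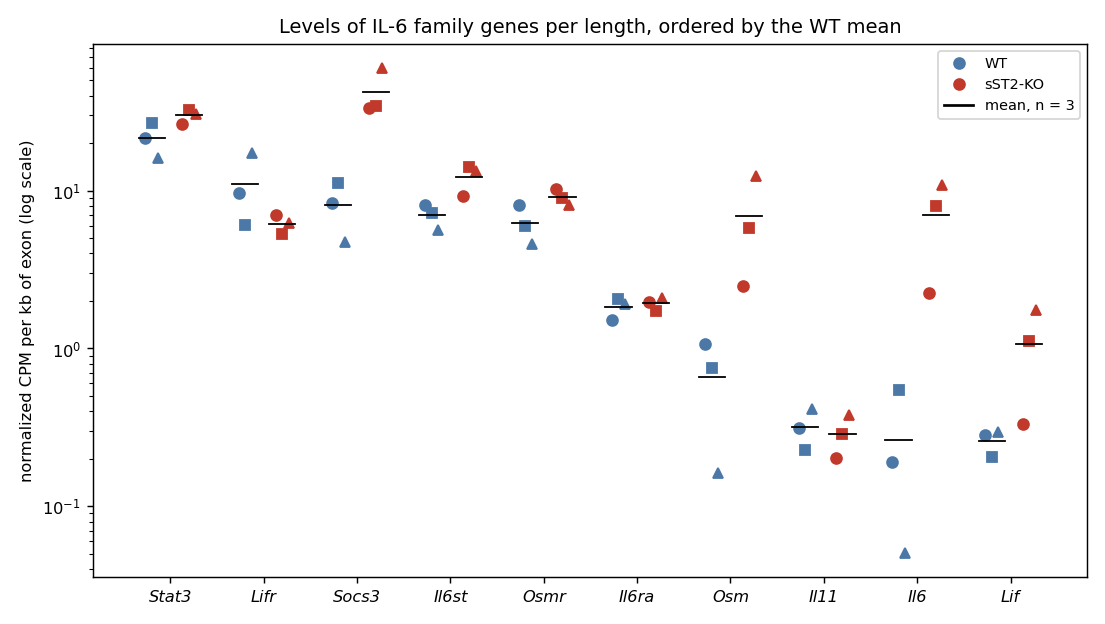
Normalized CPM per kb of exon (y axis, log scale) of the 10 genes (x axis), ordered by their WT mean. Each symbol is 1 library, circles, squares and triangles are replicates 1, 2 and 3, and black bars are means of 3 libraries. Il6 and Osm lie below Osmr and Lifr in WT mice and overlap them in sST2-KO mice, where Socs3 lies above Stat3. Exon length counts the bases of every annotated transcript, and the order between genes depends on it.

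Some of these genes share exon bases with genes on the other strand, and the sources used here do not give whether the counting used the strand. In the GENCODE annotation the shared bases made up 11.1% of the exon length of Lifr, with Gm62219, and at most 7.33% with any single gene for Il6ra, Il6st, Stat3 and Socs3. Stat3 shared 142 bases with Stat5a, and Socs3 shared 160 and 261 bases with the non-coding genes Gm73339 and Gm57366. Il6, Il11, Lif, Osm and Osmr shared none.

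The genes whose levels followed a member most closely over the 6 libraries were looked up for 1 gene of each role, by Pearson correlation of log2 CPM. For Il6 these were Dnajb11, Crtam and Rgs16, with r of 0.999, 0.998 and 0.998. For Osmr they were Atxn7l1os2, Caml and Taf4, with r of 0.995, 0.988 and 0.985. For Socs3 they were Depdc1a, Copb2 and Fam78a, with r of 0.999, 0.998 and 0.997. All points come from the same 6 libraries in 2 groups, so any gene that differs between the groups gains from that difference.

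Further genes of the pathway were read from a list of 52 ligands, receptors, kinases, STAT factors, inhibitors and STAT3 target genes, of which 49 were tested. Of these, 15 were called higher and 1 lower, against 9.04% and 7.1% of all genes tested, and at an adjusted p alone the counts were 20 and 1, against 10.5% and 9.1%. The median log2 fold change was 0.73 against 0.034 for all genes. Without WT replicate 3 only Tnfaip3 was called, and without WT replicate 2 the calls were 6 higher and 0 lower, 5 of them among the calls made with all libraries.

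Among 5 other ligands tested, Clcf1, a cytokine that signals through the CNTF receptor, rose. It had 6.72 to 10.2 CPM in WT mice and 15.2 to 18.4 CPM in sST2-KO mice (log2 fold change 1.02, adjusted p = 0.0285), and its adjusted p was 0.0525 to 0.107 with a library left out. DESeq2 and edgeR with RLE factors did not call it, only because the fold change fell just under 2. The log2 fold changes were 0.999 in DESeq2 (adjusted p = 0.0031) and 0.996 with RLE factors (adjusted p = 0.0301). The remaining 4, which include Ctf1, Ebi3 and Il27, did not pass in the main edgeR fit. DESeq2 called Ebi3 (log2 fold change 2.31, adjusted p = 0.0172) and Il27 (1.77, adjusted p = 0.0203). In other settings edgeR called Il27 with total counts (adjusted p = 0.0442) and Ebi3 without sST2-KO replicate 2 (0.0391). Among 3 other receptors tested, Il27ra, the IL-27 receptor chain that pairs with gp130, rose, with 2.59 to 2.83 CPM in WT mice and 5.09 to 8.31 CPM in sST2-KO mice (log2 fold change 1.38, adjusted p = 0.0242). Cntfr, the binding chain of the CNTF receptor, fell, with 54.9, 88.8 and 83.7 CPM in the WT libraries and 31.6, 21.7 and 5.13 CPM in the sST2-KO libraries. The estimate was -1.95 on the log2 scale with a standard error of 0.57 (adjusted p = 0.0494). Both receptor calls were fragile. That of Il27ra was kept without sST2-KO replicate 1 and lost without each of the other libraries (adjusted p up to 0.0999). That of Cntfr was lost without any WT library or without sST2-KO replicate 2 (up to 0.144), with robust estimation and with total counts. Il11ra1, the receptor chain of IL-11, did not pass, at 52.0 to 62.0 CPM in WT mice and 35.3 to 61.7 CPM in sST2-KO mice.

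Of the 10 kinase and STAT genes, 4 had an adjusted p under 0.05 and were higher, and 0 were lower, against 10.5% and 9.1% of all genes tested. Jak2, a kinase bound to gp130 and to many hormone receptors, rose, with 33.9 to 58.7 CPM in WT mice and 87.0 to 149 CPM in sST2-KO mice (log2 fold change 1.47, adjusted p = 0.0187). Stat4, a factor of T cells and other lymphocytes that acts mainly downstream of IL-12, rose, with 1.23 to 2.33 CPM and 9.76 to 16.4 CPM (log2 fold change 2.71, adjusted p = 0.0122). Stat5a (log2 fold change 1.04, adjusted p = 0.0263) rose more than 2-fold, and Stat5b (0.57, adjusted p = 0.0496) by less. The remaining 6, which include Jak1, Jak3, Tyk2, Stat2 and Stat6, did not pass, but Tyk2 was called with total counts (adjusted p = 0.0419) and without WT replicate 1 (0.0423). With 1 library left out, the call of Stat4 was lost without WT replicate 3 alone (adjusted p = 0.0563), that of Jak2 without WT replicate 2 or 3 (up to 0.0803) and that of Stat5a without 4 of the 6 libraries (up to 0.104), while Stat5b missed an adjusted p of 0.05 each time. Of the 8 inhibitors, Ptpn6, which encodes the phosphatase SHP-1 of blood cells, rose, with 11.7 to 19.7 CPM and 59.2 to 141 CPM (log2 fold change 2.45, adjusted p = 0.0141, 0.0630 without WT replicate 3). The remaining 7, which include Socs1, Socs2 and Cish, did not pass in the main edgeR fit. Socs1 was called by DESeq2 (adjusted p = 0.0185) and by edgeR with total counts (0.0422) and with at least 10 counts in every sample (0.04995), and Cish by DESeq2 (0.0233).

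Of the 23 genes known as STAT3 targets, many of which also answer to other signals such as NF-kB, 13 had an adjusted p under 0.05 and were higher, 9 of them more than 2-fold, and 0 were lower. Of all genes tested, 10.5% were higher and 9.1% lower at that adjusted p, and 9.04% were higher by more than 2-fold as well. Tnfaip3, an inhibitor of NF-kB signaling, had 6.90 to 12.1 CPM in WT mice and 61.3 to 113 CPM in sST2-KO mice (log2 fold change 3.20, standard error 0.32, adjusted p = 0.0090), and its call was kept without each library. Junb, a subunit of AP-1, rose, with 47.7 to 112 CPM and 282 to 319.8 CPM (log2 fold change 1.96, adjusted p = 0.0148). Icam1, an adhesion molecule for leukocytes, rose, with 34.0 to 44.3 CPM and 80.1 to 113 CPM (log2 fold change 1.25, adjusted p = 0.0148). Fos (log2 fold change 2.85, adjusted p = 0.0189) and Fosl2 (1.14, adjusted p = 0.0198), further AP-1 subunits, rose as well. The calls of Junb and Icam1 were lost without WT replicate 3 alone (0.0610 and 0.0669) and those of Fos and Fosl2 without WT replicate 2 or 3 (up to 0.0708 and 0.0741), and the log2 fold change of Fos was 2.18 without sST2-KO replicate 3, while Fosl2 fell under 2-fold without sST2-KO replicate 2. The 10 targets that did not pass include Cebpb, Hp, Vegfa and Myc, which was called without WT replicate 2 (adjusted p = 0.0397). Over the whole list of 49 genes, edgeR gave 30 higher and 2 lower at an unadjusted p under 0.05, against 19.6% and 16.7% of all genes tested. DESeq2 called 18 higher and 1 lower by adjusted p and fold, against 11% and 8.8%.

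**Figure D4:**
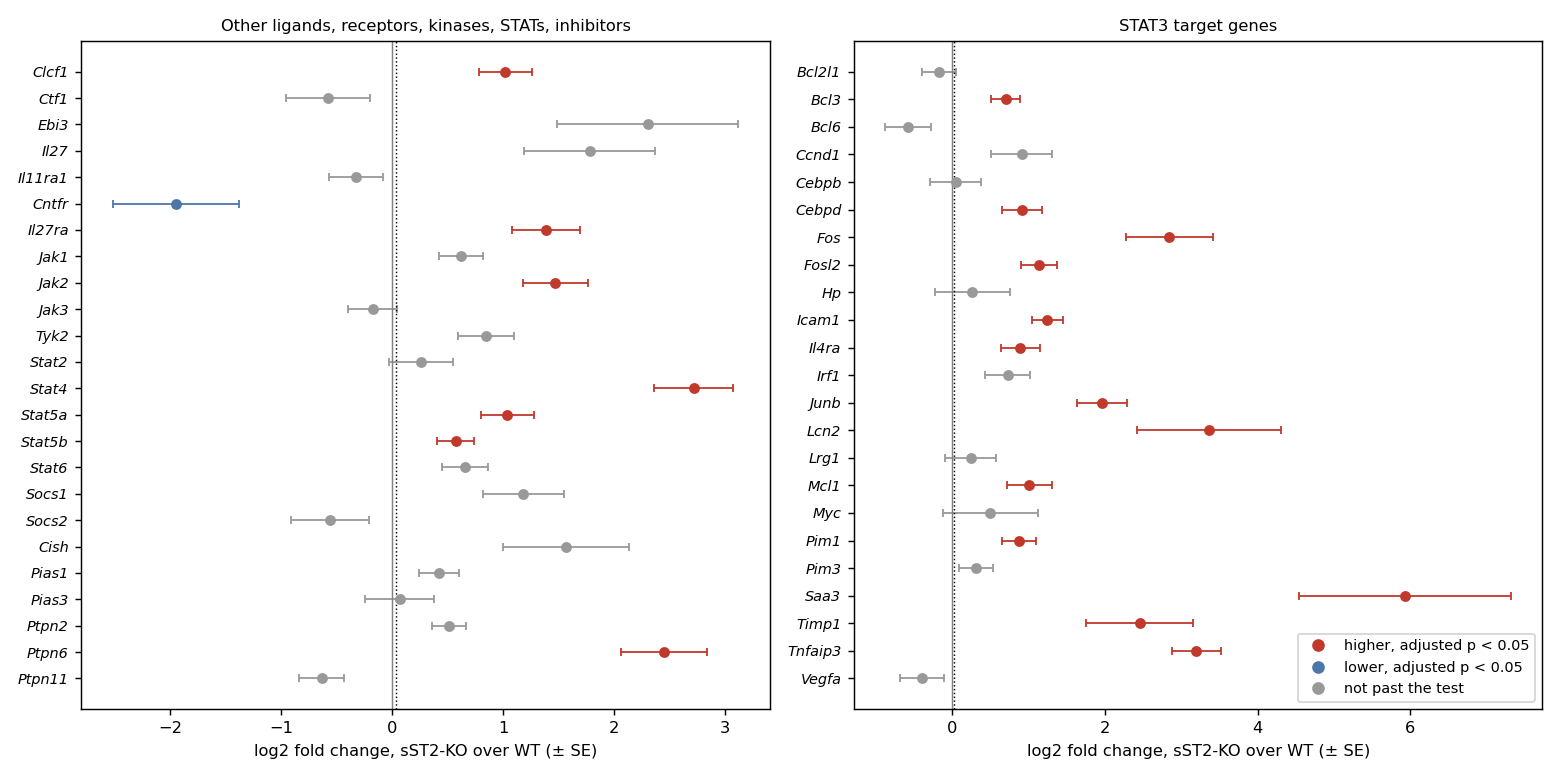
Log2 fold change of sST2-KO over WT with its standard error (x axis) for 47 of the 49 other pathway genes tested (y axis), with STAT3 target genes on the right. The dotted line is the median of all genes tested, 0.034. Red points are the 20 genes higher at an adjusted p under 0.05, the blue point is Cntfr, and grey points did not pass.

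Markers of several cell types moved between the same groups, and their part in these results was not tested. The summed level of 10 macrophage markers was 807 to 1123 CPM in WT mice and 1376 to 5789 CPM in sST2-KO mice, with 2 genes called higher. The gap between these sums rested on Lyz2, at 265 to 352 CPM in WT mice and 585 to 3383 CPM in sST2-KO mice. In 4 of the 10 every sST2-KO library lay above every WT library. The groups overlapped for Csf1r, Mrc1, C1qa, C1qb, Mertk and Cd163, and the estimate of Cd163 was negative (log2 fold change -1.26, not called). For 8 neutrophil markers the summed level was 30.6 to 141 CPM and 146 to 731 CPM, with 3 called higher, and the defining marker Ly6g was at 0 in 1 WT library. For 7 T cell markers it was 12.5 to 14.5 CPM and 106 to 136 CPM, with 6 called higher, and for 6 B cell markers 1.03 to 3.08 CPM and 3.09 to 6.06 CPM, with Pax5 at 0 in 3 libraries. Skeletal muscle markers, which muscle next to the fat pad could bring in, summed to 69.5 to 1507 CPM in WT mice and 4129 to 17482 CPM in sST2-KO mice. In all 14 of them the groups did not overlap, and 2 were called. sST2-KO replicate 3 had the highest sums of macrophage, neutrophil, T cell and muscle markers as well as the highest Il6, Osm, Lif and Socs3. Within sST2-KO mice the lowest Il6, Osm and Lif were in replicate 1, whereas the lowest neutrophil, T cell and muscle sums were in replicate 2. Fibroblast sums were 1172, 2309 and 10166 CPM and mast cell sums 102, 144 and 246 CPM in sST2-KO replicates 1, 2 and 3. These rose in the same replicate order as Il6, Osm and Lif. The macrophage sums of sST2-KO replicates 1 and 2 were nearly equal, at 1379 and 1376 CPM.

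Lower in every sST2-KO library were the sums of brown adipocyte markers (6 of 8 called), of adipocyte markers (18896 to 24525 CPM in WT mice and 7191 to 12959 CPM in sST2-KO mice, 1 of 6 called), of erythrocyte markers (474 to 1549.8 CPM and 10.96 to 107 CPM, 4 of 6 called), of Schwann cell markers (62.7 to 77.6 CPM and 23.4 to 48.2 CPM, 2 of 6 called) and of hepatocyte markers (272 to 4808 CPM and 68.0 to 87.7 CPM, 3 of 7 called and 3 tested). The highest hepatocyte sum was that of WT replicate 2 alone, the other WT libraries having 272 and 442 CPM. Outside WT replicate 2 most of this sum was Cyp2e1. It had 396 and 244 CPM in WT replicates 1 and 3, and 79.4, 72.6 and 59.1 CPM in the sST2-KO libraries. Sums overlapped between the groups for endothelial cells, smooth muscle, mast cells and fibroblasts. The smooth muscle markers did not move together. Des was called higher, with 62.3 to 208 CPM in WT mice and 289 to 1635 CPM in sST2-KO mice. Acta2, Myh11, Tagln, Cnn1 and Rgs5 had negative estimates (log2 fold change -0.52 to -1.95), and none of them was called. Fibroblasts, a known source of Il6 and Lif, had 2049 to 6321 CPM in WT mice and 1172 to 10166 CPM in sST2-KO mice.

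**Figure D5:**
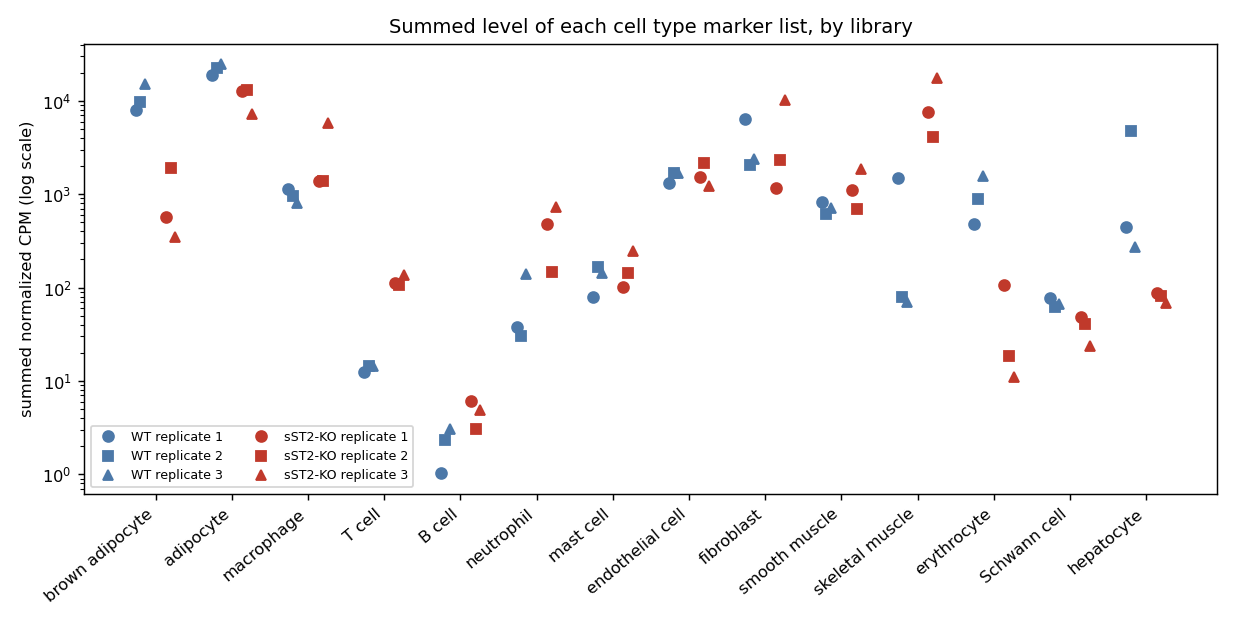
Summed normalized CPM (y axis, log scale) of the markers of each cell type (x axis) in every library. Macrophage, T cell, B cell, neutrophil and skeletal muscle sums are higher in all sST2-KO libraries, adipocyte, erythrocyte, Schwann cell and hepatocyte sums are lower, and sST2-KO replicate 3 has the highest macrophage and muscle sums. The gap between the macrophage sums of the groups rests on Lyz2, and the B cell and neutrophil sums of the groups almost touch.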

How the data were processed

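RNA-seq was performed on BAT from 3 WT and 3 sST2-KO mice. The authors made poly-A-selected libraries, sequenced paired-end reads, checked them with FastQC 0.12.1, aligned them with HISAT2 2.2.1 to mm39 and counted them with htseq-count. The versions of tools are from the submitters' processing notes. The deposited values are raw counts per gene symbol, with the annotation and strand setting not given in the sources used here. The labels gave each library its group, and 0 per-sample columns were left over.

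The quasi-likelihood test of edgeR 4.0.16 (glmQLFit and glmQLFTest, without a covariate) was run in R 4.3.3 on counts kept by filterByExpr, with TMM factors of 0.825 to 1.14, and p values were adjusted by Benjamini-Hochberg over 14542 genes. A standard error is the size of the log2 fold change divided by the square root of F. DESeq2 1.42.0, which the study's methods name, was an alternative, as were RLE factors, total counts, other filters, robust estimation, a block for the replicate number, no minimum fold change and each library left out. The members, the lists and the tests were chosen with earlier results of these data known. All members were named. Other pathway genes were named at an adjusted p under 0.05, at most 5 per role by smallest p, and some that did not pass are listed without that rule. Trac and Tf were not analysed here, and the values of 2 genes of the pathway list are not reported here. Chi-square values per degree of freedom between libraries of a group were 36.6 to 104.0, far above sampling noise. In simulated counts for this comparison with 14795 genes tested, edgeR recovered 96.0% of 200 genes changed 4- or 8-fold and called 10 unchanged genes. The simulation gave every gene the same dispersion, a measure of spread between replicates, and no outlying library. It checked that the code ran correctly and does not give the power of the comparison in these data. Coordinates, exon lengths and start regions are from GRCm39, the same assembly as mm39, with GENCODE, whose gene models may differ from those counted. A count of 3 corresponds to 0.209 to 0.370 CPM. Figures were drawn with matplotlib 3.10.9.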

Additional observations from a re-analysis of the deposited data

How the results depend on the processing

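The count of called members, 3 higher and 0 lower, became 5 higher with total counts, while leaving out a library gave 0 to 4 higher. Of all genes tested, 12.7% were called higher with total counts, and 0.239% to 9.38% with a library left out. For the other pathway genes, 15 higher and 1 lower, leaving out a library gave 1 to 13 higher and 0 to 1 lower, and 0 were lower with total counts (1 at an unadjusted p under 0.05) and with robust estimation (2 at that level), both in edgeR. Under a replicate block, edgeR called 0 members higher, 0 lower, 0 other pathway genes higher and 0 lower, and 0 genes of 14542, while 6 members and 4623 genes had an unadjusted p under 0.05. Libraries with the same number deviated from their group means with correlations of -0.058, 0.21 and -0.31. The labels give no pairing, and so few values cannot show whether mice with the same number shared anything more.

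Over 13 alternatives, 100 of 115 values of the members kept their direction and their side of the thresholds, 8 lost a call, 6 gained one and 1 changed sign, that of Il6ra without WT replicate 1 (-0.045, and up to 0.17 without another library). All 8 losses fell on Il6, Osm and Socs3, the only members with a call to lose, so the count of 100 says little about how stable calls were. With at least 10 counts in every sample Il6 and Osm could not be tested. The cause was not tested, beyond the smaller group when a library is left out. Depth limits Il6, Osm, Lif and Il11, with as few as 1 to 26 counts in WT libraries.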
